A study of Bos taurus with 12 samples.

Results

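Heat shock proteins and chaperones were followed in the transcriptome of female and male bovine expanded blastocysts (XBs, *Bos taurus*) produced in vitro. Members were all genes of the count table whose symbol begins with HSPA, HSPB, HSPD, HSPE, HSPH, HSP90, DNAJ or CCT and a digit, together with *TCP1*, *HSF1* and *HSF2*. This rule found 85 of 32637 genes, all of them protein-coding and on autosomes. The study compared 6 female with 5 male RNA-seq libraries of the same stage, with no treatment and no altered allele in either group. By the paper, embryos were collected on different days of culture and semen of 2 bulls was used in turn. The labels used here give neither the day nor the bull of a pool. Each library came from a pool of 2 bisected embryos of one sex, the other part of each embryo having been used for sexing by PCR, so the replicates are pools rather than embryos. Inner cell mass and trophectoderm were sequenced together. A long-read sample of 4-cell embryos was not used.

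Chaperones bind unfolded proteins and let them fold or refold. HSP70 proteins (HSPA) work in cycles of ATP binding that J-domain proteins (DNAJ) start and nucleotide exchange factors close, and HSP90 takes over clients that are close to their final fold. The chaperonins are barrels that enclose a single client: TRiC (CCT) folds actin and tubulin in the cytosol, and HSPD1 with its lid HSPE1 works in mitochondria. Heat shock factors induce many of these genes under stress, whereas the chaperones of the endoplasmic reticulum (ER) are induced by the unfolded protein response.

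Counted reads ranged from 6664112 to 16162985 in the female libraries and from 9942952 to 21392764 in the male ones, and members took between 1.93% and 2.38% of the counts of a library. *XIST* reached 52.3 to 261 CPM (counts over the TMM-adjusted library size) in females and 0.745 to 3.97 CPM in males, so the labels held. Male replicate 5 stood apart from the other libraries. Its score on the first principal component was 54.9, against 10.3 to 19.6 in the other males, and it had 14937 genes detected against 16985 to 18550 in the other libraries. The summed level of the 10 trophectoderm markers was 36145 CPM in that library, 9195 to 20252 CPM in the other males and 7879 to 23154 CPM in females. All 10 were tested, with 5 higher in each sex by estimate and *PTGS2* higher in females at p under 0.05 (log2 fold change -1.20, edgeR FDR = 0.166, DESeq2 FDR = 0.0220). Inner cell mass markers (6 of 7 tested, all with higher estimates in males, none at p under 0.05) summed to 560 to 980 CPM in females and 792 to 1076 CPM in males. Of these, *NANOG* was called male-biased when edgeR tested every gene with counts (log2 fold change 0.84, FDR = 0.00663). That fit does not measure the spread of a single gene between pools. *NANOG* was not called in the main fit (edgeR FDR = 0.655) or by DESeq2 (FDR = 0.692). Hypoblast markers (5 of 7 tested) summed to 228 to 621 CPM in females and 208 to 467 CPM in males. Of the 7 cumulus markers 3 were tested and *CYP19A1* was higher in females at p under 0.05 (log2 fold change -1.67, edgeR FDR = 0.241), the sum being 7.19 to 32.7 CPM in females and 5.38 to 29.5 CPM in males, mostly from *FSHR*, while *INHA*, *AMH* and *FOXL2* did not pass 0.305 CPM in any library. The main counts are given with and without male replicate 5.

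No member was called sex-biased. Of the 85 members, 73 passed the filter on low counts, and at a false discovery rate (FDR, the Benjamini-Hochberg adjusted p of edgeR's quasi-likelihood test) under 0.1 with a fold change over 1.5 the number called was 0 (background 1.91% of the 12802 genes tested, 0.707% of the autosomal ones, with 0.414% male-biased and 1.5% female-biased). At an unadjusted p under 0.05, 7 members were higher in males (background 6.26%), namely *CCT5*, *CCT7*, *CCT6A*, *DNAJC17*, *DNAJC8*, *HSPBP1* and *DNAJC7*. *DNAJB4* was the 1 member higher in females at that p (background 6.95%). These counts were, without male replicate 5, 11 members higher in males (background 7.81%) and 4 higher in females (background 8.38%). DESeq2 called 1 member, *DNAJB4* (background 3.06% for female-biased genes), and edgeR called 2 when all genes with counts were tested, *DNAJB4* and *HSPA1A* (background 2.24%). P-values of that last fit were the normal tail of the estimate over its SE. They do not measure the spread of a single gene between pools. Estimates were higher in males for 42 of the 73 (background 50.5%), and the median log2 fold change, male minus female, was 0.04 against 0.01 over all genes tested. Over fits that left out 1 library the median ran from -0.0075 (without male replicate 3) to 0.10 (without male replicate 5). In no member did every male library lie above every female library (background 1.43%), and in none did every female library lie above every male one (background 1.88%). Since each library mixed the cell types of the embryo, fewer cells of a type and less RNA per cell cannot be told apart.

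**Figure D1:**
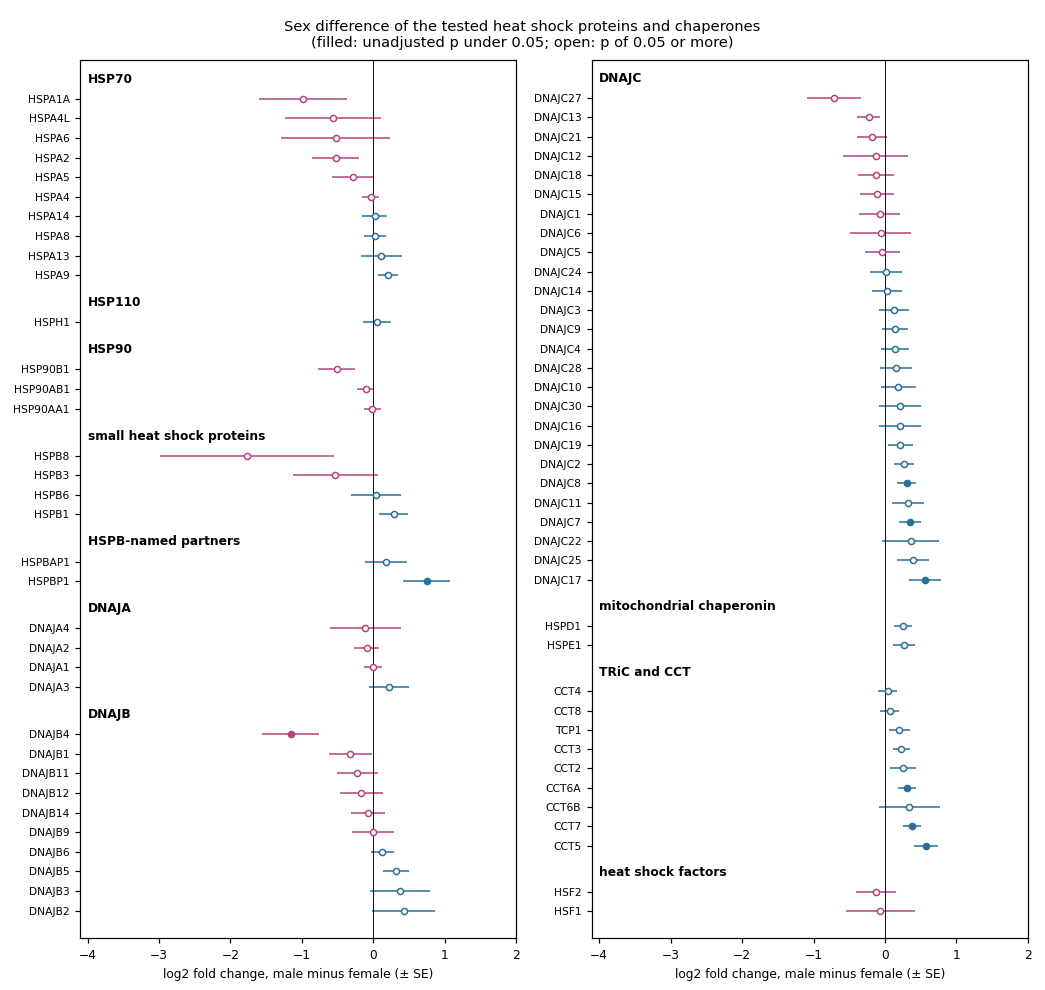
Log2 fold change, male minus female, with its SE for the 73 members tested, grouped by family, where filled points have an unadjusted p under 0.05. The 9 tested members of the TRiC and CCT family all lie right of 0, HSPB8 has the widest error bar, and DNAJB4 is the only filled point on the female side.

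The 8 subunits of the TRiC ring all had higher estimates in males (background 50.5%). Their log2 fold changes ran from 0.04 (*CCT4*) to 0.58 (*CCT5*) with a median of 0.24, and 3 of the 8 had an unadjusted p under 0.05 (background 6.26%). Without male replicate 5 the median was 0.31 and 5 of the 8 had a p under 0.05 (background 7.81%). The estimates of *CCT4* and *CCT8* turned to -0.09 and -0.01 without male replicate 3. These genes varied little among pools of one sex: the median coefficient of variation (CV) was 11.9%, against 26.5% over the members and 33.2% over all genes tested. This was not particular to the ring. The median CV was 11.4% for HSP90, 14.6% for the mitochondrial chaperonin and 15.9% for prefoldin and TRiC cofactors. These sets were not matched for level. Summed over the ring, the female mean was 4280 ± 218 CPM (SD, n = 6) and the male mean 5046 ± 458 CPM (SD, n = 5). The lowest male sum was 4547 CPM (replicate 5) and the highest female sum 4487 CPM (replicate 2), a gap of 60.1 CPM that no test was made on. With TMM factors from autosomal genes or with library totals the sums overlapped, the lowest male standing at -33.1 and -325 CPM relative to the highest female, and with library totals the ratio of male to female mean was 1.09 instead of 1.18.

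*CCT5*, which encodes the epsilon subunit (chromosome 20, 62979746 to 62993754, ARS-UCD2.0), had the smallest p of all members. The 6 female libraries had a lowest *CCT5* level of 260.2, a median of 321 and a highest of 384 CPM. Male replicates 1 to 5 had 458, 514, 357, 415 and 733 CPM of *CCT5*. Male replicate 5 was the highest and male replicate 3 the lowest of the males, the latter below female replicate 6, so 4 of 5 males lay above every female. For *CCT5*, edgeR estimated a log2 fold change of 0.58 ± 0.16 (SE, FDR = 0.140). It was called without male replicate 4 (log2 fold change 0.65, edgeR FDR = 0.0761), and without male replicate 5 the estimate was 0.43 (edgeR FDR = 0.139). By DESeq2 and by edgeR on every gene with counts, its FDR was 0.0635 and 0.0661, but the fold change stayed under 1.5.

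*CCT7* encodes the eta subunit (chromosome 11). Female levels of *CCT7* had a median of 379 CPM, the lowest being 318 and the highest 481 CPM. The male *CCT7* levels, in replicate order, were 464, 529.5, 536, 469 and 556 CPM. Female replicate 1, the highest female, exceeded male replicates 1 and 4, and the other females lay below every male. *CCT7* had a log2 fold change of 0.38 ± 0.13 (SE, edgeR FDR = 0.234). *CCT6A* encodes the zeta subunit (chromosome 25). In females, *CCT6A* ran from 512 to 644 CPM with a median of 591 CPM. In males, *CCT6A* was at 693, 775, 773, 770.4 and 624 CPM in replicates 1 to 5. Male replicate 5 alone fell within the female range. For *CCT6A* the log2 fold change was 0.31 ± 0.12 (SE, edgeR FDR = 0.300). Without male replicate 5 it was 0.37 (edgeR FDR = 0.130), and then every male exceeded every female.

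The other ring subunits overlapped more widely. *CCT2* (beta subunit) spanned 703 to 865 CPM in females and 607 to 1465 CPM in males, with both the highest and the lowest library of all being male (replicates 3 and 5). For *CCT2*, edgeR estimated a log2 fold change of 0.25 ± 0.18 (SE, FDR = 0.585). Without male replicate 3 it was 0.03. *TCP1* (alpha subunit) had 304 to 412 CPM in females and 319.6 to 461 CPM in males, and 3 of 5 males exceeded every female. *TCP1* had a log2 fold change of 0.20 ± 0.14 (SE, edgeR FDR = 0.596). *CCT3* (gamma subunit) had a female mean of 494 ± 57.7 CPM (SD, n = 6) and a male mean of 568 ± 63.5 CPM (SD, n = 5). For *CCT3* the log2 fold change was 0.23 ± 0.12 (SE, edgeR FDR = 0.459). *CCT4* (delta subunit) had a female mean of 661 ± 105 CPM (SD, n = 6) and a male mean of 681 ± 70.9 CPM (SD, n = 5). The theta subunit, *CCT8*, had a female mean of 679.5 ± 47.5 CPM (SD, n = 6) and a male mean of 710.2 ± 84.1 CPM (SD, n = 5). Neither difference was larger than the spread among pools (log2 fold change 0.04 ± 0.13 and 0.06 ± 0.13, SE). *CCT6B*, the testis-enriched relative of *CCT6A*, was low, at 3.73 to 12.4 CPM in females and 2.13 to 12.8 CPM in males.

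**Figure D2:**
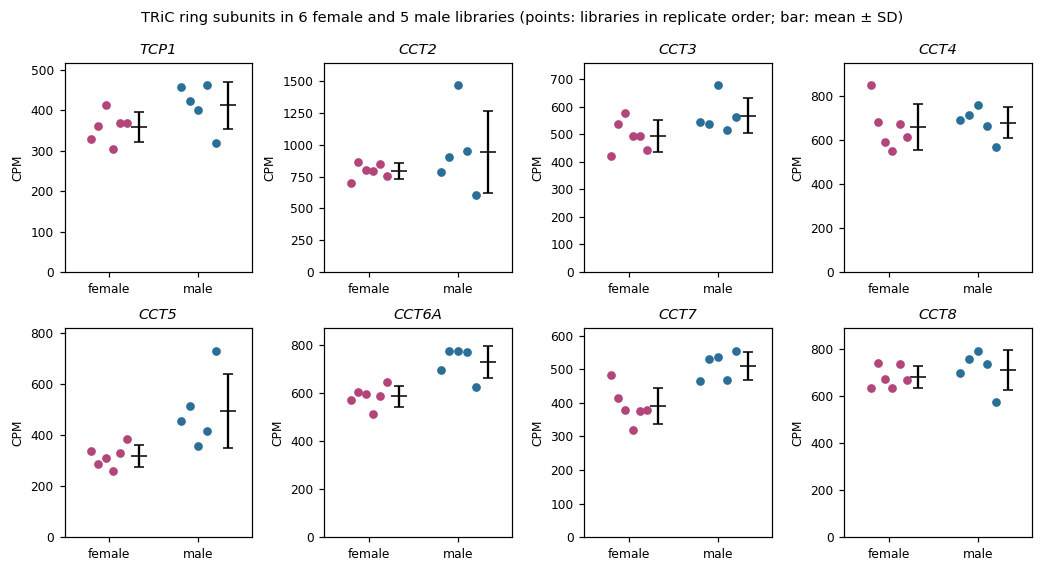
CPM of the 8 TRiC ring subunits, with each point a library in replicate order (6 female, 5 male) and the bar the mean ± SD on axes that start at 0. Most male points of CCT5, CCT6A and CCT7 lie above the female ones, whereas CCT4 and CCT8 overlap throughout.

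Prefoldin, which hands unfolded actin and tubulin to TRiC, and other TRiC cofactors held the only called gene of the 6 pathway lists. Of 12 genes tested, 9 had higher estimates in males (background 50.5%) and the median log2 fold change was 0.22, which was 0.04 without male replicate 4. At a p under 0.05 there was 1 gene in each direction (background 6.26% higher in males and 6.95% higher in females). Of the 12, 1 was called (background 1.91% of all genes tested and 27.9% of the 476 X-linked ones). The called gene was *VBP1*, the X-linked prefoldin subunit 3, with a female mean of 555 ± 18.6 CPM (SD, n = 6) and a male mean of 329 ± 70.4 CPM (SD, n = 5). The 6 female libraries had a lowest *VBP1* level of 536, a median of 552 and a highest of 582 CPM. Male replicates 1 to 5 had 302, 288, 361, 435 and 257 CPM of *VBP1*. Every female lay above every male. Its log2 fold change was -0.76 ± 0.15 (SE, edgeR FDR = 0.0382), opposite in sign to that of the ring. The call was lost with the block by title number (edgeR FDR = 0.106) and without female replicate 2 or male replicate 1, 2 or 3 (edgeR FDR from 0.108 to 0.121), and the estimate stayed between -0.90 and -0.67 when libraries were left out.

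Most mitochondrial chaperones had higher estimates in males, and none was called. Of 10 members that work in mitochondria, 9 had higher estimates in males (background 50.5%) and none had a p under 0.05. The median log2 fold change was 0.21 (0.12 without male replicate 5). Without that library 8 had higher estimates in males and 2, *HSPD1* and *HSPE1*, had a p under 0.05 (background 7.81%). *HSPD1* (HSP60, the mitochondrial chaperonin barrel) and *HSPE1* (HSP10, its lid) lie 152 bases apart on chromosome 2. Female levels of *HSPD1* had a median of 628 CPM, the lowest being 557 and the highest 743 CPM. The male *HSPD1* levels, in replicate order, were 769, 879, 878, 743 and 558 CPM. Male replicates 1, 2 and 3 exceeded every female, and male replicate 5 was close to the lowest female. For *HSPD1*, edgeR estimated a log2 fold change of 0.25 ± 0.13 (SE, FDR = 0.436). Without male replicate 5 it was 0.33 (edgeR FDR = 0.188). In females, *HSPE1* ran from 636 to 814 CPM with a median of 682 CPM. In males, *HSPE1* was at 778, 835, 851, 1096 and 634 CPM in replicates 1 to 5. Male replicate 4 was the highest library and male replicate 5 the lowest. *HSPE1* had a log2 fold change of 0.26 ± 0.16 (SE, edgeR FDR = 0.512). Without male replicate 4 it was 0.10 (edgeR FDR = 0.755), and without male replicate 5 it was 0.35 (edgeR FDR = 0.249). The ratio of *HSPD1* to *HSPE1* within a library was 0.917 ± 0.042 (SD, n = 6) in females and 0.926 ± 0.154 (SD, n = 5) in males, where replicate 4 was lowest at 0.677. *HSPA9* (mortalin, the mitochondrial HSP70) had a female mean of 516 ± 93.1 CPM (SD, n = 6) and a male mean of 577 ± 91.0 CPM (SD, n = 5). For *HSPA9* the log2 fold change was 0.20 ± 0.14 (SE, edgeR FDR = 0.592).

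*DNAJA3*, a J-domain partner of mortalin, was set apart by 1 library. It reached 61.5 CPM in male replicate 5 and 22.5 to 24.6 CPM in the other males, with 20.5 to 35.5 CPM in females. The estimate was 0.21 with that library and -0.10 without it. The list of mitochondrial proteases and further chaperones gave 7 of 9 genes with higher estimates in males (background 50.5%) and 1, *CLPP*, at a p under 0.05 (background 6.26%). That list's median changed sign, from 0.12 to -0.09, without male replicate 5.

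For the constitutive folding machinery of the cytosol the estimated differences between the sexes were small. *HSPA8* (HSC70, the constitutive HSP70) had a female mean of 4127 ± 654 CPM (SD, n = 6) and a male mean of 4159.9 ± 586 CPM (SD, n = 5). For *HSPA8*, edgeR estimated a log2 fold change of 0.03 ± 0.15 (SE, FDR = 0.964). *HSP90AB1* (the constitutive HSP90) had a female mean of 1365 ± 137 CPM (SD, n = 6) and a male mean of 1254 ± 88.2 CPM (SD, n = 5), and *HSP90AA1* (the inducible isoform) a female mean of 2678 ± 360.0 CPM (SD, n = 6) and a male mean of 2634 ± 218 CPM (SD, n = 5). Their log2 fold changes were -0.11 ± 0.12 and -0.02 ± 0.12 (SE). The ratio of *HSP90AA1* to *HSP90AB1* counts within a library, not corrected for length, was 1.97 ± 0.256 (SD, n = 6) in females and 2.11 ± 0.281 (SD, n = 5) in males. *HSPA4*, an HSP110 relative that serves as exchange factor, gave -0.04 ± 0.12 (SE), and *HSPA14*, which sits at the ribosome, 0.02 ± 0.18 (SE). *DNAJA1* and *DNAJA2*, the main J-domain partners of HSC70, gave -0.01 ± 0.13 and -0.10 ± 0.17 (SE). These differences were all smaller than their errors, and the signs of *HSPA4*, *HSPA8*, *HSPA14*, *HSP90AA1*, *DNAJA1* and *DNAJA2* turned when single libraries were left out.

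Partners of these machines are given as lists. Of 19 HSP90 cochaperones, 11 had higher estimates in males (background 50.5%), and the median of 0.18 became -0.02 without male replicate 5. A p under 0.05 was found for 1 of them (background 6.26%). This was *ST13*, which links HSP70 to HSP90, with a female mean of 490.3 ± 36.8 CPM (SD, n = 6) and a male mean of 667 ± 114 CPM (SD, n = 5), every male lying above every female. Its log2 fold change was 0.45 ± 0.14 (SE, edgeR FDR = 0.179). Of 10 nucleotide exchange factors, 7 had higher estimates in males, with a median of 0.32 (0.08 without male replicate 5). At a p under 0.05 there was 1 in each direction (background 6.26% higher in males and 6.95% higher in females). These were *GRPEL1*, the exchange factor of mortalin (0.43 ± 0.14, SE), and *BAG4* (-0.57 ± 0.23, SE). *HSPBP1*, a cytosolic exchange factor that the naming rule takes in, stood at 8.38 to 14.8 CPM in females, at 12.4 to 14.6 CPM in male replicates 1 to 4 and at 52.0 CPM in male replicate 5. *HSPBP1* had a log2 fold change of 0.75 ± 0.32 (SE, edgeR FDR = 0.351). Without that library it was 0.29 (edgeR FDR = 0.515). *HSPBAP1*, named for binding a small heat shock protein, gave 0.17 ± 0.29 (SE).

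Stress-inducible chaperones of the cytosol varied widely among pools, and most had higher estimates in females. The 9 members were *DNAJA1*, *DNAJB1*, *DNAJB4*, *HSP90AA1*, *HSPA1A*, *HSPA4L*, *HSPA6*, *HSPB1* and *HSPH1*. Of these 9, 7 had higher estimates in females, while 50.5% of all genes tested had higher estimates in males. The 7 include *HSP90AA1* (-0.02 ± 0.12, SE) and *DNAJA1* (-0.01 ± 0.13, SE), given above with the constitutive machinery. Both estimates were smaller than their errors and turned sign when single libraries were left out, so they show no direction. The median log2 fold change of the 9 was -0.32 (from -0.48 without female replicate 5 to -0.05 without female replicate 6). Of the 9, 1 was higher in females at a p under 0.05 (background 6.95%). The median was -0.22 without male replicate 5, and 3 of the 9 were then higher in females at that p (background 8.38%). The median CV within a sex was 48.3%, but 2 of the 9 had a CV under 20%. Their summed level was instead higher in males by its mean, but this sum rests mostly on *HSP90AA1* and *HSPB1*. Of these, only *HSPB1* had a higher estimate in males (0.29 ± 0.20, SE, edgeR FDR = 0.597). The female mean was 4507 ± 567 CPM (SD, n = 6) and the male mean 4743 ± 243 CPM (SD, n = 5). *DNAJB4* (chromosome 3, 66663309 to 66707306), an HSP40 that works with HSP70 on misfolded proteins, had the smallest p on the female side. The 6 female libraries had a lowest *DNAJB4* level of 19.8, a median of 25.1 and a highest of 42.9 CPM. Male replicates 1 to 5 had 6.37, 26.2, 7.98, 9.06 and 14.4 CPM of *DNAJB4*. Male replicate 2 lay within the female range, and the other 4 males lay below every female. For *DNAJB4* the log2 fold change was -1.16 ± 0.40 (SE, edgeR FDR = 0.224). Without male replicate 2 it was -1.67 (edgeR FDR = 0.0225), and without male replicate 5 it was -1.21 (edgeR FDR = 0.205). DESeq2 gave it an FDR of 0.0576 and edgeR on every gene with counts 0.00437, the latter with an SE of 0.29 against 0.40 in the main fit.

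*HSPA1A* (chromosome 23, 27520317 to 27522790), the classical heat-induced HSP70, spread over more than an order of magnitude in males. Female levels of *HSPA1A* had a median of 38.1 CPM, the lowest being 14.6 and the highest 48.3 CPM. The male *HSPA1A* levels, in replicate order, were 7.78, 28.5, 4.18, 6.59 and 52.8 CPM. Male replicates 1, 3 and 4 lay below every female, whereas male replicate 5 was the highest library of all. For *HSPA1A*, edgeR estimated a log2 fold change of -0.99 ± 0.61 (SE, FDR = 0.534). Without male replicate 5 it was -1.74 (edgeR FDR = 0.182), and without male replicate 3 it was -0.52. edgeR on every gene with counts gave -0.99 at an FDR of 0.0176, but with an SE of 0.27 against 0.61 in the main fit. That smaller SE does not measure the spread of *HSPA1A* between pools. The neighbouring *HSPA1L*, 54 bases away, had counts in 4 libraries and did not pass the filter. Reads shared between HSP70 genes of similar sequence could be split either way, since the treatment of multiple matches is not given in the sources used here.

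*HSPA2*, an HSP70 best known from the testis, also had its highest level in male replicate 5. In females, *HSPA2* ran from 14.3 to 26.1 CPM with a median of 21.9 CPM. In males, *HSPA2* was at 16.2, 8.45, 8.63, 12.2 and 39.3 CPM in replicates 1 to 5. Male replicates 2, 3 and 4 lay below every female and male replicate 5 above every female. *HSPA2* had a log2 fold change of -0.53 ± 0.33 (SE, edgeR FDR = 0.534). Without male replicate 5 it was -0.92 (edgeR FDR = 0.0754), which passed both thresholds (background 2.1%). *DNAJB1* (HSP40, the heat-induced partner of HSP70) stood at 27.8 to 88.3 CPM in females, at 26.9 to 39.4 CPM in male replicates 1 to 4 and at 106 CPM in male replicate 5. Its log2 fold change was -0.32 ± 0.30 (SE) with that library and -0.65 without it (edgeR FDR = 0.214).

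Male replicate 5 was the highest male for 2 of the 9 stress-inducible members, for 23 of the 73 members tested and for 33.3% of all genes tested, and male replicate 2 for 4 of the 9 (14.7% of all genes). The part of the trophectoderm marker sum of male replicate 5 in these levels was not tested.

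*HSPA6*, a strictly inducible HSP70, was low in all libraries. It reached 6.36 CPM in female replicate 6 and 0.600 to 1.41 CPM in the other females, with 0.257 to 3.49 CPM in males. *HSPH1* (HSP110), an exchange factor of HSP70, had a female mean of 139 ± 33.5 CPM (SD, n = 6) and a male mean of 141 ± 31.3 CPM (SD, n = 5), and its log2 fold change was 0.05 ± 0.19 (SE). *HSPB1* (HSP27), an ATP-independent holdase, had a female mean of 1079.6 ± 235 CPM (SD, n = 6) and a male mean of 1391 ± 406 CPM (SD, n = 5). For *HSPB1* the log2 fold change was 0.29 ± 0.20 (SE, edgeR FDR = 0.597). The other small heat shock proteins tested were scarce: *HSPB8* did not pass 4.95 CPM, *HSPB3* 8.11 CPM and *HSPB6* 7.49 CPM in any library. *HSPB8* had the largest SE of the members (log2 fold change -1.77 ± 1.22, SE), its estimate running from -3.32 to -0.93 when libraries were left out.

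**Figure D3:**
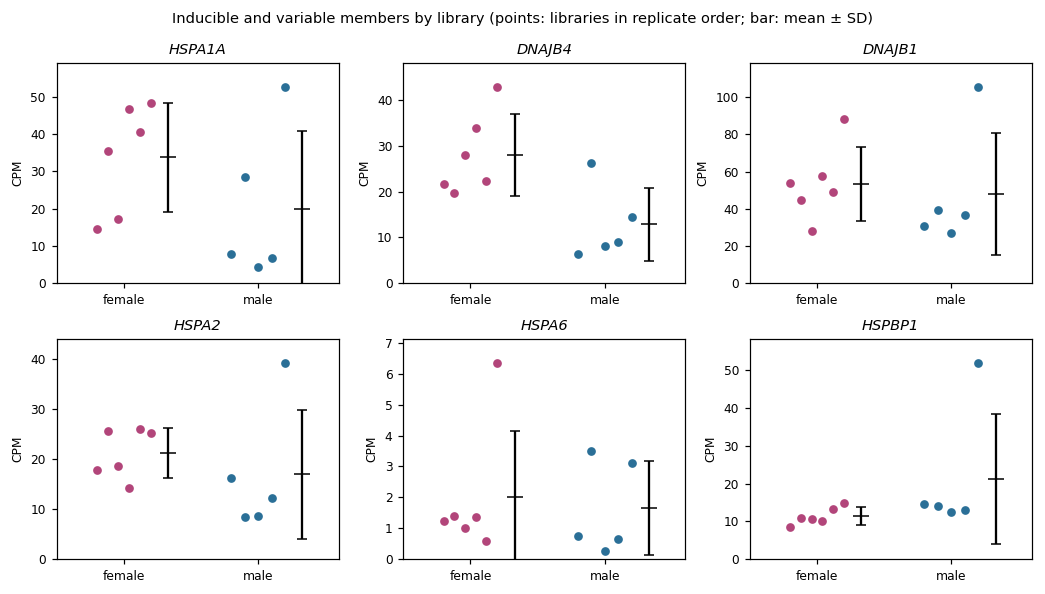
CPM of 6 inducible or variable members, with each point a library in replicate order (6 female, 5 male) and the bar the mean ± SD on axes that start at 0, where bars that would pass 0 are cut. Male replicate 5, the rightmost male point, is the highest male for HSPA1A, DNAJB1, HSPA2 and HSPBP1, and the other 4 males of HSPA2 lie between 8.45 and 16.2 CPM.

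Members that work in the ER differed more between pools than between sexes. Of 12 members, 5 had higher estimates in males (background 50.5%), none had a p under 0.05 in either direction, and the median log2 fold change was -0.04. The median was 0.09 without male replicate 5, when 7 of the 12 had higher estimates in males and 1 of them had a p under 0.05 (background 7.81%). Their summed level had a female mean of 2861 ± 699 CPM (SD, n = 6) and a male mean of 2531 ± 940 CPM (SD, n = 5). *HSPA5* (chromosome 11, 96115158 to 96119452) encodes BiP, the HSP70 of the ER. The 6 female libraries had a lowest *HSPA5* level of 802, a median of 1246 and a highest of 1724 CPM. Male replicates 1 to 5 had 670.0, 1935, 1116, 901 and 709.9 CPM of *HSPA5*. Male replicate 2 was the highest library and male replicate 1 the lowest, so the male range enclosed the female one. For *HSPA5*, edgeR estimated a log2 fold change of -0.29 ± 0.29 (SE, FDR = 0.725). Without male replicate 2 it was -0.60 (edgeR FDR = 0.387), and without female replicate 6 it was -0.06. *HSP90B1* (GRP94, the HSP90 of the ER) had a female mean of 594 ± 165 CPM (SD, n = 6) and a male mean of 416 ± 156 CPM (SD, n = 5). The male *HSP90B1* levels, in replicate order, were 343, 604, 538, 385 and 212 CPM. Male replicate 5 was the lowest library, and 3 of 5 males lay below every female. *HSP90B1* had a log2 fold change of -0.52 ± 0.25 (SE, edgeR FDR = 0.412).

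For several ER members the highest values fell in the same pools. Female replicate 6 was the highest female for 6 of the 12 (17.1% of all genes tested), and male replicate 2 the highest male for 7 of the 12 (14.7%). *DNAJB9* (ERdj4), an inducible J-domain partner of BiP, reached 408 CPM in female replicate 6 and 412 CPM in male replicate 2. The other libraries lay at 167 to 252 CPM in females and 148 to 252 CPM in males. *DNAJB11* (ERdj3) reached 177 CPM in female replicate 6 and 136 CPM in male replicate 2, and was lowest in female replicate 3, at 36.0 CPM. *DNAJC3* (P58IPK), a BiP partner that also restrains the kinase PERK, had 192 to 389 CPM in females and 205 to 361 CPM in males. *DNAJC10* (ERdj5), a disulfide reductase, was highest in male replicate 2 at 281 CPM and lowest in male replicate 5 at 80.9 CPM. *HSPA13* (STCH), an atypical HSP70 of the microsomes, had the same highest and lowest libraries, at 75.8 and 17.8 CPM.

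The list of ER folding and unfolded protein response genes, which holds no member, showed the same pools. Male replicate 2 was the highest male for 14 of its 19 genes and female replicate 6 the highest female for 9 of 19, while female replicate 3 was the lowest female for 12 of 19 (18.6% of all genes tested). The list's median log2 fold change was -0.02, with 8 of 19 genes higher in males by estimate (background 50.5%). At a p under 0.05, 2 genes, *PDIA3* and *ATF6*, were higher in females (background 6.95%). The trophectoderm marker sum was 20252 CPM in male replicate 2 and 21586 CPM in female replicate 6, the second highest of each sex, and 7879 CPM in female replicate 3, the lowest. The highest marker sums were those of male replicate 5 (36145 CPM) and female replicate 1 (23154 CPM). In these libraries the 12 ER members summed to 1616.5 CPM, the lowest of all libraries, and to 2889 CPM. The part of the trophectoderm marker sum in the ER levels was not tested.

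**Figure D4:**
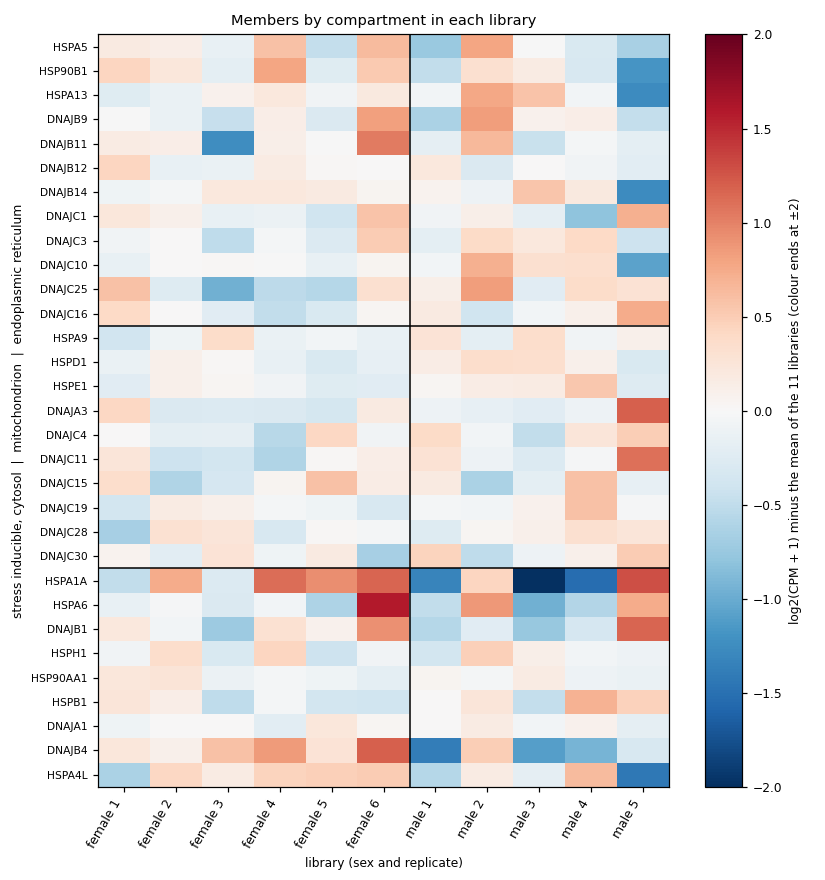
Log2(CPM + 1) of ER (top), mitochondrial (middle) and stress-inducible (bottom) members in each of the 11 libraries, as the difference from the gene's mean over libraries, with red above and blue below it. Columns of female replicate 6 and male replicate 2 are red for HSPA5, HSP90B1, DNAJB9 and DNAJB11, and HSPA1A and DNAJB4 are blue in male replicates 1, 3 and 4.

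The J-domain family, whose members recruit HSP70 to its tasks, had no common direction. Of 40 tested, 22 had higher estimates in males (background 50.5%), and the median log2 fold change was 0.08. At a p under 0.05, 3 were higher in males (background 6.26%) and 1 higher in females (background 6.95%). *DNAJC17*, a nuclear protein with an RNA-binding motif, had 6.99 to 11.3 CPM in females and 10.1 to 16.7 CPM in males. For *DNAJC17* the log2 fold change was 0.56 ± 0.22 (SE, edgeR FDR = 0.300). *DNAJC8*, linked to the spliceosome, had a female mean of 196 ± 24.8 CPM (SD, n = 6) and a male mean of 243 ± 26.7 CPM (SD, n = 5). For *DNAJC8*, edgeR estimated a log2 fold change of 0.30 ± 0.13 (SE, FDR = 0.348). Male replicate 2 alone lay within the female range, and the other 4 males exceeded every female. *DNAJC7* (TPR2), which passes clients between HSP70 and HSP90, had a female mean of 99.6 ± 15.7 CPM (SD, n = 6) and a male mean of 124 ± 24.5 CPM (SD, n = 5). *DNAJC7* had a log2 fold change of 0.35 ± 0.15 (SE, edgeR FDR = 0.351). On the female side, *DNAJC27*, a small GTPase with a J domain, had a female mean of 5.92 ± 1.88 CPM (SD, n = 6) and a male mean of 3.39 ± 1.38 CPM (SD, n = 5). For *DNAJC27* the log2 fold change was -0.72 ± 0.38 (SE, edgeR FDR = 0.447). Without male replicate 4 it was -1.15 (edgeR FDR = 0.126). *DNAJC13*, an endosomal protein, gave a log2 fold change of -0.23 ± 0.16 (SE, edgeR FDR = 0.573). *DNAJB6*, a suppressor of protein aggregation, gave 0.13 ± 0.16 (SE), and this was 0.01 without male replicate 5, where it reached 475 CPM against 200 to 317 CPM in the other males.

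The heat shock factors did not differ between the sexes beyond their spread. *HSF1*, the main activator of heat shock genes, ranged over 8.90 to 40.4 CPM in females and 5.50 to 56.7 CPM in males, with male replicate 5 highest and male replicate 2 lowest. For *HSF1*, edgeR estimated a log2 fold change of -0.06 ± 0.49 (SE, FDR = 0.975). The estimate was -0.47 without male replicate 5. *HSF2*, which acts in development, had a female mean of 68.5 ± 11.6 CPM (SD, n = 6) and a male mean of 61.6 ± 27.8 CPM (SD, n = 5), and male replicate 5 was the lowest library, at 20.5 CPM. Its log2 fold change was -0.13 ± 0.28 (SE), and 0.11 without male replicate 5. Of 4 further HSF genes and regulators, 2 were tested and neither had a p under 0.05.

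Across the 11 libraries, 5 pairs of members were compared on the log2 CPM scale, each with a two-sided permutation test of 100000 resamples and Benjamini-Hochberg adjustment over the pairs. *HSPA5* and *HSP90B1* of the ER moved together most closely (Pearson r = 0.87, permutation p = 0.00027, adjusted 0.00135; Spearman rho = 0.92, permutation p = 0.00025, adjusted 0.00125). Without the 2 libraries farthest from the median of *HSPA5*, r was 0.93, and with the sex means removed it was 0.87. *HSPA1A* and *DNAJB1* gave r = 0.76 (permutation p = 0.00651, adjusted 0.0143) and rho = 0.85 (permutation p = 0.00131, adjusted 0.00245). Without the 2 farthest libraries r was 0.72, and with the sex means removed 0.77. The neighbours *HSPD1* and *HSPE1* gave r = 0.74 (permutation p = 0.00857, adjusted 0.0143) and rho = 0.85 (permutation p = 0.00147, adjusted 0.00245), with r = 0.71 without the 2 farthest libraries. With the sex means removed, r was 0.64 and its adjusted permutation p 0.0574. *CCT2* and *TCP1* of one ring gave r = 0.45 (permutation p = 0.167, adjusted 0.209) and rho = 0.53 (permutation p = 0.0992, adjusted 0.124), and *HSPA8* and *HSP90AB1* gave r = 0.26 (permutation p = 0.433, adjusted 0.433) and rho = 0.35 (permutation p = 0.286, adjusted 0.286). Without the 2 farthest libraries these were r = 0.54 and 0.19. In the 6 female libraries alone, r was 0.94 for *HSPA5* and *HSP90B1*, 0.59 for *HSPA1A* and *DNAJB1* and 0.90 for *HSPD1* and *HSPE1*. There it was 0.30 for both *CCT2* with *TCP1* and *HSPA8* with *HSP90AB1*, and none of these was tested. All 5 pairs held their side of the threshold when each library was left out. All points share sequencing depth and cell makeup within a library.

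**Figure D5:**
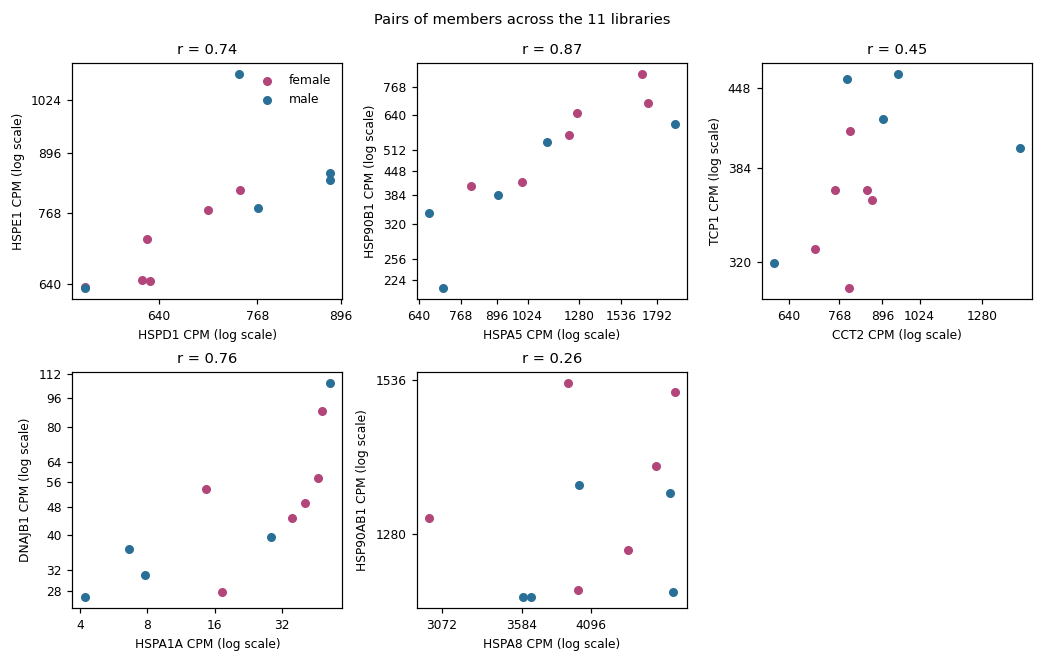
CPM of 5 pairs of members in the 11 libraries on log axes, with females and males in separate colors and Pearson r of log2 CPM above each panel. HSPA5 and HSP90B1 lie closest to a line (r = 0.87), while HSPA8 and HSP90AB1 scatter (r = 0.26).

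The filter removed 12 members. *DNAJC5G* had 0 counts in every library, which allows up to 3 counts in each, or 0.145 to 0.413 CPM depending on depth. *HSPB7*, *DNAJB7*, *DNAJC5B* and *HSPB2* had 1 to 3 counts in total, *HSPA12B*, *DNAJB13* and *HSPB9* 11 to 14, and *HSPA12A*, *HSPA1L*, *CCT8L2* and *DNAJB8* 35 to 64. Of the 64 counts of *DNAJB8*, 35 came from male replicate 5, and *CCT8L2* had up to 17 counts in a female and up to 5 in a male library. Among the 11 with counts, the two-sided exact permutation test of log2 CPM over all 462 splits gave p from 0.104 to 1, with 0.00216 the smallest p it allows, and adjusted p from 0.714 to 1. At this depth no difference was detectable for them.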

How the data were processed

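Gene counts of 6 female and 5 male pools were used. The authors built the libraries with a SMART-Seq HT PLUS kit, used fastp 0.20.0 for trimming and STAR 2.7.10b for alignment to ARS-UCD2.0 with at most 3 mismatches, and deposited unnormalized counts per gene from featureCounts. Strand settings, and how reads with several matches were counted, are not given in the sources used here. Pools were grouped by the sex in the labels. Members and lists were chosen with earlier results of these data known. Symbols were joined to RefSeq for positions, and all 85 members matched.

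Here edgeR 4.0.16 (R 4.3.3) was run on the counts. filterByExpr by sex left 12802 genes, TMM factors were applied, and males were set against females by the quasi-likelihood test with Benjamini-Hochberg adjustment over all genes tested. The study corrected for collection week, which the labels do not give, so the first number of the library name (1 to 3) was the block in its place. Deviations of libraries that share it correlated at 0.01, 0.37 and 0.20 across genes, so the pairing rests on the library name alone. The SE is the log2 fold change over the root of the F statistic. The common biological coefficient of variation was 0.403. Named members were the 6 with the smallest p in each direction, the 4 with the largest coefficient of variation and a fixed list of known chaperones, and others were chosen after their values were seen. Log2 CPM used a prior count of 2. Correlations and single values were tested in python 3.11.15 with scipy 1.17.1. The methods were tested on simulated counts.

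Alternatives were other blocks, DESeq2 1.42.0, RLE or autosomal TMM factors, other filters, an FDR of 0.05, a tested fold change, and each library left out. After the data were seen, a call without the fold threshold and other scalings of the TRiC sum were added. Exon lengths and promoter sequences were not used here, so levels of different genes are not ordered and no motif was searched. Reads carried no molecular identifiers and do not stand for independent molecules, so count limits cover counting error only. P-values of the main fit measure the spread between pools, but those of edgeR on every gene with counts do not for single genes. The labels do not say whether pools came from separate batches of embryos.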

Additional observations from a re-analysis of the deposited data

Results flagged for a closer look

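In 4 of 86 groups of libraries (43 named members in each sex), 1 library lay far from the others of its sex by Dixon's test on log2 CPM. Chance gives this in about 1 in 20 groups only for members chosen without regard to their values. Here some were named for a small p or a large CV in these data, *HSPBP1* and *HSPA6* among them, so that rate does not apply. Of these, 3 were in male replicate 5. *HSPBP1*, an HSP70 exchange factor, stood at 52.0 CPM there and at 12.4 to 14.6 CPM in the other males. *DNAJA3*, a mitochondrial J-domain protein, stood at 61.5 CPM there and at 22.5 to 24.6 CPM in the other males. *DNAJB1*, the inducible HSP40, stood at 106 CPM there and at 26.9 to 39.4 CPM in the other males. The remaining one was *HSPA6*, an inducible HSP70, at 6.36 CPM in female replicate 6 and 0.600 to 1.41 CPM in the other females.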

How the results depend on the processing

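With all 11 libraries, 0 members were called under RLE factors, autosomal TMM factors, the stricter filter, an FDR of 0.05, a tested fold change, no replicate block and a block by the replicate number of the titles. DESeq2 called 1 member female-biased and edgeR on every gene with counts called 2, against 0 in the reported test. Leaving out 1 library gave 0 to 1 male-biased calls (*CCT5* without male replicate 4) and 0 to 1 female-biased calls (*DNAJB4* without male replicate 2, *HSPA2* without male replicate 5). Of all genes tested, 2.1% were called female-biased without male replicate 5. In the main fit 0.414% were called male-biased and 1.5% female-biased. Shares without male replicate 2 or 4 are not given here, so these calls are not set against a background. Leaving out 1 library gave 0 to 2 members with every male above every female (1.55% to 2.65% of all genes tested in those fits), and 0 to 1 with every female above every male (2.07% to 2.93%). The correlation of *HSPD1* and *HSPE1* with sex means removed was 0.64 and no longer passed. The causes were not tested. Deviations of libraries that share a title number correlated at -0.11 to 0.35, over 0.1 for 2 of 5 numbers, and those that share a library number over 0.1 for 2 of 3, so neither block was taken as a pairing shown by the data.

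Of 43 named members, 26 kept the sign of their log2 fold change in every fit. With the block by title number, the signs of *HSPA6* (0.0193), *DNAJA1* (0.0167), *DNAJA2* (0.00194), *DNAJB9* (0.14) and *DNAJB11* (0.12) turned, and without a block those of *DNAJA1* (0.00507), *DNAJB9* (0.0110) and *HSF1* (0.0606). *DNAJB9* also turned with DESeq2 (0.00433), RLE factors (0.00350) and every gene with counts (0.00226), and *HSPA14* with autosomal factors (-0.00946). Leaving out 1 library turned the signs of 17 members, whose log2 fold changes ran as follows. They were *HSPA6* from -1.16 to 0.30, *HSPB3* from -0.86 to 0.0118, *HSPA4* from -0.0768 to 0.00180, *HSPA8* from -0.0694 to 0.12, *HSPA13* from -0.0896 to 0.36, *HSPA14* from -0.16 to 0.15. Further, they were *HSPH1* from -0.0678 to 0.17, *HSP90AA1* from -0.10 to 0.0307, *DNAJA1* from -0.0484 to 0.0555, *DNAJA2* from -0.20 to 0.0289, *DNAJA3* from -0.0980 to 0.40, *DNAJB9* from -0.31 to 0.24. Last, they were *DNAJB11* from -0.41 to 0.00543, *CCT4* from -0.0912 to 0.11, *CCT8* from -0.00752 to 0.14, *HSF1* from -0.47 to 0.44 and *HSF2* from -0.33 to 0.11.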
